A study of Hordeum vulgare with 32 samples.

Results

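VRS1 is the homeodomain leucine zipper (HD-Zip) gene of the barley six-rowed spike locus. Of the 30174 transcripts measured in barley (Hordeum vulgare) main shoot apices, 2 carry the Arabidopsis match homeobox protein 40, and both are described here. They were chosen by identifier and by that shared match, with earlier results of these data known. AB259783.1 (MLOC_4993.2), a low-confidence gene model placed on chromosome 2 at map position 79.39 (a position for which the table names no unit), is taken to stand for VRS1. MLOC_77488.1 is a high-confidence model without a map position. The deposited table gives neither a barley gene name, so the identity of AB259783.1 with VRS1 rests on its match and chromosome and was not tested.

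Class I HD-Zip proteins bind DNA through a homeodomain and dimerise through the leucine zipper beside it. A barley spike carries a central and a pair of lateral spikelets at each rachis node. In 2-rowed barley VRS1 represses the lateral spikelets, and loss of its function gives a six-rowed spike. In Arabidopsis, HB40 and its relatives HB21 and HB53 act in axillary buds downstream of the TCP factor BRANCHED1, where they promote abscisic acid accumulation.

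Total RNA of the main shoot apex, the tip that becomes the spike, was sequenced in 32 libraries from 5 lines at 2 Waddington stages of spike development, W3.5 and W5.5 by the sample labels; the table's headers give the later stage as W5.0. The 2-rowed cultivar Bowman, whose background all the other lines share, had 4 libraries per stage. The introgression lines were vrs1 (stock GSHO 1907), int-c.5 (GSHO 2003), int-a.1 (GSHO 2055, headed vrs3(int-a.1) in the table) and vrs4.k (GSHO 1986), each with 3 libraries per stage and its mutant allele in the Bowman background. Each line is 1 stock, and the donor segment that comes with the allele cannot be told apart from the allele. Day and night lasted 16 h (22 °C) and 8 h (18 °C) for all plants, whose apices were collected 6 to 8 h before the dark period. The labels give no lesion for any line, so a transcript level does not check a line's identity, and they do not say whether libraries came from separate plants, so p-values measure the spread between these libraries, which may be technical.

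Values were treated as TPM, an abundance scaled for transcript length and library total, although the headers call them raw counts. Library totals were 980945 to 987728 TPM, which reflects that scaling, and the sequencing depth is unknown. The first principal component of all transcripts held 24.2% of the variance and broadly followed stage, with 4 libraries past the median of the other stage. At W3.5 these were replicate 4 of Bowman, replicate 1 of int-a.1 and replicate 2 of vrs4.k, and at W5.5 it was replicate 1 of int-c.5. MADS-box transcripts, which mark spikelet and floral organ development, summed to 896 to 1138 TPM in Bowman at W3.5 and to 833 to 1638 TPM in vrs4.k at W3.5. None of the 35 MADS-box or 11 KNOX meristem transcripts was at 0 in all libraries of a group, and the part of floral progress in the differences given here was not tested.

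Both transcripts come from the same branch of the family by the table's matches. They share their best matches in Brachypodium (Bradi1g23460.1), rice (LOC_Os07g39320.1), sorghum (Sb02g037560.1) and Arabidopsis (AT4G36740.1), and differ in the Aegilops match (AEGTA29076 for AB259783.1 and AEGTA11945 for MLOC_77488.1). A further transcript, MLOC_8033.1, has the same Arabidopsis match but other Brachypodium and rice matches (Bradi1g71280.2 and LOC_Os03g10210.1) and is named homeobox protein 21. Reads shared between such similar copies could be split or pooled by the quantification, which was not tested.

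The first question was how much of each transcript the apex of the 2-rowed parent held. In Bowman at W3.5, AB259783.1 was at 3.8, 11, 6.4 and 20.6 TPM in replicates 1 to 4. At W5.5 it was at 16.5, 19.4, 12.9 and 30.9 TPM. The stages overlapped through replicate 4 of W3.5, one of the 4 libraries that stand apart from their stage. MLOC_77488.1 was the weaker of the pair, at 0.6, 1.2, 0.9 and 3.6 TPM at W3.5. At W5.5 its level was 3.6, 4.4, 3.1 and 8.1 TPM. Replicate 4 held the highest level of both transcripts at each stage. Over all 32 libraries the mean level was 8.38 TPM for AB259783.1 and 1.71 TPM for MLOC_77488.1, at the 45.5 and 1.92 percentile of listed transcripts. Every listed transcript reached 1 TPM in at least 3 libraries, so transcripts below that level are not part of this ranking.

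**Figure D1:**
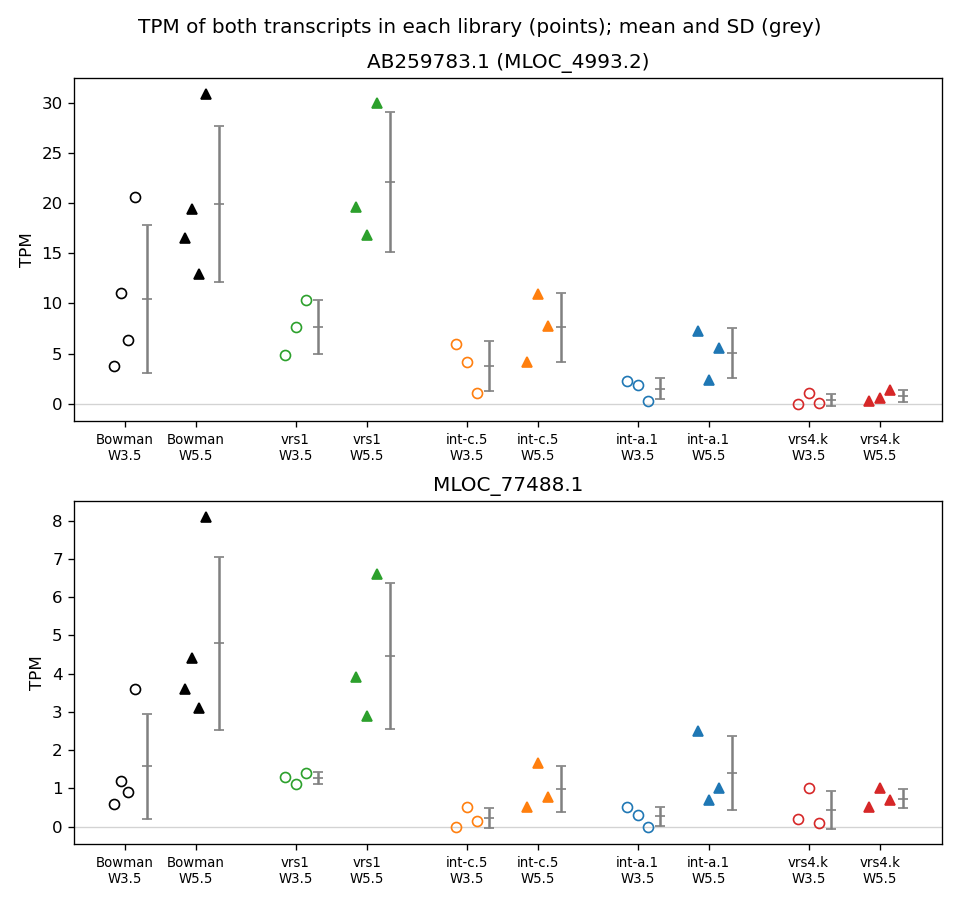
TPM of AB259783.1 (upper panel) and MLOC_77488.1 (lower panel) in each library, by line and stage. Open circles are W3.5 libraries, filled triangles W5.5 libraries, and grey bars show the mean and SD of 3 or 4 libraries; the Bowman and vrs1 libraries reach 30.9 and 30 TPM for AB259783.1, while the 6 vrs4.k libraries stay at or below 1.4 TPM.

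Levels in the vrs1 line were like those of Bowman. AB259783.1 was at 4.9, 7.7 and 10.3 TPM at W3.5 and at 19.6, 16.8 and 30 TPM at W5.5. MLOC_77488.1 was at 1.3, 1.1 and 1.4 TPM at W3.5 and at 3.9, 2.9 and 6.6 TPM at W5.5. All 6 vrs1 libraries lay within the range of the 8 Bowman libraries for both transcripts. Over both stages the log2 fold against Bowman was -0.03 for AB259783.1, with a 95% interval from -0.73 to 0.67 (limma, adjusted p = 0.998). For MLOC_77488.1 it was -0.06, with an interval from -0.54 to 0.42 (limma, adjusted p = 0.982). Of all transcripts 0.497% were called in this comparison, where called means a Benjamini-Hochberg adjusted p below 0.05 over the 30174 transcripts. Neither transcript was called at a single stage, where 0.341% (W3.5) and 0.325% (W5.5) of transcripts were called. The sign of these small differences is not settled, since it turned under several settings and without single libraries.

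The strongest loss was in vrs4.k. There AB259783.1 was at 0, 1.1 and 0.1 TPM at W3.5 and at 0.3, 0.6 and 1.4 TPM at W5.5. Every vrs4.k library lay below every Bowman library of the same stage. Group means were 0.4 ± 0.608 TPM (SD, n = 3) against 10.45 ± 7.39 (n = 4) at W3.5, and 0.767 ± 0.569 against 19.9 ± 7.79 at W5.5. The log2 fold was -2.89 at W3.5 (limma, adjusted p = 0.000991) and -3.54 at W5.5 (limma, adjusted p = 4.77e-05), with 0.653% and 0.696% of all transcripts called. In bulk tissue, fewer cells that express a gene and less RNA per cell cannot be told apart.

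MLOC_77488.1 also fell in vrs4.k, from a lower start. Its level was 0.2, 1 and 0.1 TPM at W3.5, where the groups overlapped, and 0.5, 1 and 0.7 TPM at W5.5, below every Bowman library of that stage. The later difference was called, with 0.733 ± 0.252 TPM (SD, n = 3) against 4.8 ± 2.26 (n = 4) and a log2 fold of -1.68 (limma, adjusted p = 0.00635). At W3.5 the log2 fold was -0.77 (limma, adjusted p = 0.456). Over both stages the log2 folds were -3.22 for AB259783.1 (limma, adjusted p = 4.26e-07) and -1.23 for MLOC_77488.1 (limma, adjusted p = 0.00315), with 1.54% of transcripts called. The W5.5 call of MLOC_77488.1 was lost without vrs4.k W5.5 replicate 1 (log2 fold -1.58), with a pseudocount of 0.1 in place of 1 (-2.50) and when the 2 compared groups were fitted alone. The last of these settings also ended the W3.5 call of AB259783.1.

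In int-a.1 both transcripts were lower than in Bowman when the stages were averaged. AB259783.1 was at 2.3, 1.9 and 0.3 TPM at W3.5 and at 7.3, 2.4 and 5.6 TPM at W5.5, below every Bowman library of the same stage. MLOC_77488.1 was at 0.5, 0.3 and 0 TPM at W3.5, and at 2.5, 0.7 and 1 TPM at W5.5. Its int-a.1 libraries also lay below all Bowman libraries of their stage. Over both stages the log2 fold was -1.94 (SE 0.340) for AB259783.1 (limma, adjusted p = 0.00127) and -1.09 (SE 0.233) for MLOC_77488.1 (limma, adjusted p = 0.00868), and 2.13% of all transcripts were called.

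At a single stage, the int-a.1 difference was called for AB259783.1 at W3.5, where the mean was 1.5 ± 1.06 TPM (SD, n = 3) and the log2 fold -2.08 (limma, adjusted p = 0.0394; 0.653% of transcripts called). Omitting any one of replicates 2, 3 and 4 of Bowman or replicates 2 and 3 of int-a.1 at that stage ended the call (log2 folds from -2.42 to -1.66 over all single omissions), as did a pseudocount of 0.1, a fit of the compared groups alone and omission of the 4 libraries that stand apart. At W5.5 its mean was 5.1 ± 2.49 TPM and its log2 fold -1.80 (limma, adjusted p = 0.0901; 0.709% called). MLOC_77488.1 averaged 0.267 ± 0.252 TPM at W3.5 (log2 fold -0.91, limma, adjusted p = 0.314) and 1.4 ± 0.964 TPM at W5.5 (log2 fold -1.27, limma, adjusted p = 0.0765).

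In int-c.5 the weaker transcript passed the test and the stronger did not. AB259783.1 was at 6, 4.12 and 1.08 TPM at W3.5 and at 4.14, 10.99 and 7.78 TPM at W5.5. MLOC_77488.1 was at 0, 0.510 and 0.154 TPM at W3.5 and at 0.504, 1.67 and 0.769 TPM at W5.5, below all Bowman libraries of the same stage. The AB259783.1 groups overlapped at W3.5 and were apart at W5.5. The column of int-c.5 W3.5 replicate 1, which lists 6 and 0 TPM, holds whole numbers only, so the 0 listed for MLOC_77488.1 there may be a rounded low level. Photosynthesis transcripts, which mark leaf tissue, summed to 1879 to 3401 TPM in int-c.5 and to 1453 to 2207 TPM in Bowman over both stages, and their part in these differences was not tested. Over both stages the log2 fold was -1.25 for MLOC_77488.1 (limma, adjusted p = 0.00943) and -1.26 for AB259783.1 (limma, adjusted p = 0.143), with 0.345% of transcripts called. These are nearly the same size, so a call for one and not the other does not show that they differed. At single stages neither was called (adjusted p = 0.525 and 0.861 for AB259783.1, 0.425 and 0.0789 for MLOC_77488.1, limma; 0.0994% and 0.106% of transcripts called). Fitting the compared groups alone ended the calls of MLOC_77488.1 over both stages in int-a.1 and int-c.5.

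**Figure D2:**
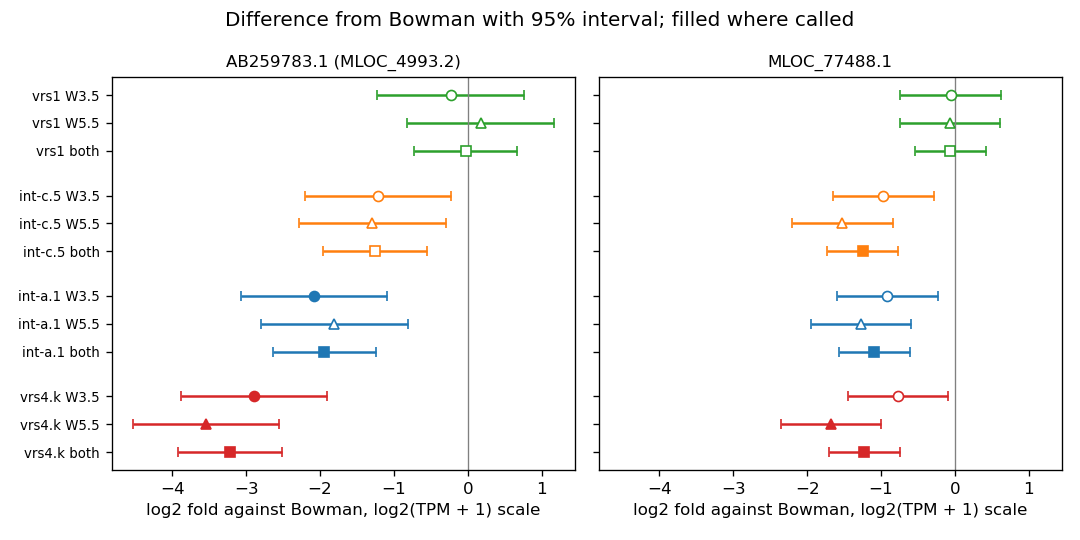
Log2 fold against Bowman on the log2(TPM + 1) scale with its 95% interval, for AB259783.1 (left) and MLOC_77488.1 (right), at W3.5 (circles), W5.5 (triangles) and over both stages (squares). Filled symbols are called at an adjusted p below 0.05; AB259783.1 reaches -3.22 over both stages in vrs4.k and lies at -0.03 in vrs1.

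The authors' deposited table gives its own folds of each line against Bowman with both stages combined. For AB259783.1 the authors' deposited table has log2 folds of -1.99 in int-a.1 (false discovery rate 0.00596), -3.79 in vrs4.k (0.0152), 0.05 in vrs1 (0.978) and -1.32 in int-c.5 (0.108). For MLOC_77488.1 the authors' deposited table has -1.43 in int-a.1 (0.0559), -1.63 in vrs4.k (0.0419), -0.04 in vrs1 (0.987) and -1.68 in int-c.5 (0.0857). The directions are those found here except for AB259783.1 in vrs1, where both values are near 0. With both stages combined, the calls at 0.05 differ for MLOC_77488.1 in int-a.1 and int-c.5, which did not pass in the authors' deposited table. The authors' single-stage values pass none of the single-stage calls made here. For AB259783.1 the authors' false discovery rate was 0.428 in vrs4.k at W3.5, 0.1965 in vrs4.k at W5.5 and 0.399 in int-a.1 at W3.5. For MLOC_77488.1 in vrs4.k at W5.5 it was 0.119. The authors' log2 folds were -3.54, -3.93, -2.40 and -1.95 in the same order.

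All comparisons with Bowman share its 8 libraries, so the introgression lines were also compared with each other over both stages. Ordered by mean level, AB259783.1 ran from Bowman (15.2 ± 8.66 TPM, SD, n = 8) and vrs1 (14.9 ± 9.24, n = 6) through int-c.5 (5.68 ± 3.42) and int-a.1 (3.30 ± 2.61) to vrs4.k (0.583 ± 0.564). No 2 neighbouring introgression lines in that order were told apart. The log2 fold was 1.23 for vrs1 against int-c.5 (limma, adjusted p = 0.288; 0.517% of transcripts called), -0.69 for int-a.1 against int-c.5 (adjusted p = 0.649; 0.785% called) and 1.28 for int-a.1 against vrs4.k (adjusted p = 0.133; 1.04% called). Lines further apart in the order differed. AB259783.1 was lower in int-a.1 than in vrs1 (-1.91, limma, adjusted p = 0.00421; 0.782% called), lower in vrs4.k than in vrs1 (-3.19, adjusted p = 3.16e-06; 0.411% called) and lower in vrs4.k than in int-c.5 (-1.96, adjusted p = 0.00233; 1.07% called).

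For MLOC_77488.1 the differences called between introgression lines were those from vrs1. Bowman (3.19 ± 2.44 TPM, SD, n = 8) and vrs1 (2.87 ± 2.13, n = 6) were above int-a.1 (0.833 ± 0.885), int-c.5 (0.601 ± 0.591) and vrs4.k (0.583 ± 0.387). Against vrs1 the log2 folds were -1.03 in int-a.1 (limma, adjusted p = 0.0465) and -1.16 in vrs4.k (adjusted p = 0.0252), and vrs1 was 1.18 above int-c.5 (adjusted p = 0.0166). Among the 3 lower lines the log2 folds were 0.13 for int-a.1 against vrs4.k, 0.15 for int-a.1 against int-c.5 and 0.02 for vrs4.k against int-c.5 (limma, adjusted p = 0.994, 0.893 and 0.984). At such low levels these tests do not show that the 3 lines were equal. The calls against vrs1 were fragile. Leaving out 1 of 12 libraries at a time ended the int-a.1 call in 9 cases (all but replicate 1 of int-a.1 at either stage and replicate 2 of vrs1 at W5.5; log2 folds -1.18 to -0.90), the vrs4.k call in 9 (all but replicate 2 of vrs1 at W5.5 and replicate 2 of vrs4.k at either stage; -1.29 to -1.03) and the int-c.5 call in 5 (replicate 3 of vrs1 at either stage, replicate 1 of int-c.5 at either stage, or replicate 3 of int-c.5 at W5.5; 1.05 to 1.30).

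Stage was the other factor of the design. Averaged over the 5 lines, both transcripts were higher at W5.5 than at W3.5, by a log2 fold of 1.02 (SE 0.224) for AB259783.1 (limma, adjusted p = 0.00645) and 0.86 (SE 0.154) for MLOC_77488.1 (limma, adjusted p = 0.00177). In this comparison 16.6% of all transcripts were called, so a call is common here. With the first principal component as a covariate both calls were lost, at log2 folds of 0.44 and 0.45. The mean of each transcript was higher at W5.5 in all 5 lines.

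Within single lines no stage difference of either transcript was called. For AB259783.1 the log2 folds of W5.5 against W3.5 were 1.03 in Bowman, 1.43 in vrs1, 1.30 in int-a.1, 0.95 in int-c.5 and 0.37 in vrs4.k. For MLOC_77488.1 they were 1.23, 1.22, 0.87, 0.68 and 0.32 in the same order. Hardly any transcript was called within a line, with 0% in Bowman, vrs1, vrs4.k and int-c.5 and 0.00994% in int-a.1 by limma, although 6705 transcripts in Bowman, 2159 in vrs1, 635 in vrs4.k and 4774 in int-c.5 had an unadjusted p below 0.05. The vrs4.k folds were the smallest of the 5 lines for both transcripts, but the test of that difference was not passed. The interaction of line and stage for vrs4.k was -0.66 for AB259783.1 and -0.91 for MLOC_77488.1 on the log2 scale (limma, adjusted p = 0.798 and 0.753). By limma 0% of transcripts were called in each of the 4 interactions, with 1877 (vrs4.k), 1766 (int-a.1), 878 (int-c.5) and 755 (vrs1) at an unadjusted p below 0.05.

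The next question was whether the transcripts varied together library by library. On log2(TPM + 1) they were related over the 32 libraries (Pearson r = 0.842, Spearman rho = 0.862; adjusted permutation p = 4e-05 and 2e-05, two-sided, over 4 relations). Without the 2 libraries farthest from the median of AB259783.1, r was 0.831. At W3.5 the relation had r = 0.768 and rho = 0.745 over 16 libraries (adjusted permutation p = 0.00043 and 0.00147; r = 0.746 without the farthest 2). At W5.5 it had r = 0.872 and rho = 0.923 over 16 libraries (adjusted permutation p = 4e-05 and 2e-05; r = 0.913 without the farthest 2).

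Line and stage set much of that relation, and the permutations above ran freely across the groups. The deviations of each library from its group mean were therefore compared as well. These had r = 0.764 and rho = 0.753 over 32 libraries (adjusted permutation p = 8e-05 and 0.000107, labels permuted within groups; r = 0.69 without the farthest 2). In 8 of 10 groups the same library held the highest level of both transcripts. By line, given without a test since each holds 2 stages, r was 0.952 in the 8 Bowman libraries, and in 6 libraries each 0.937 in vrs1, 0.932 in int-a.1, 0.807 in vrs4.k and 0.654 in int-c.5. The lowest of these, int-c.5, includes the column of whole numbers. Without int-c.5 the relation of the deviations had r = 0.859 over 26 libraries.

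The deviations also moved with the first principal component of all transcripts, with r = 0.68 and rho = 0.705 for AB259783.1 (adjusted permutation p = 0.00052 and 0.00032; r = 0.651 without the farthest 2) and r = 0.723 and rho = 0.724 for MLOC_77488.1 (adjusted permutation p = 0.00038 and 0.00032; r = 0.708). Of the 4 libraries apart from their stage, the 3 at W3.5 held the highest level of both transcripts in their groups, and int-c.5 W5.5 replicate 1 held the lowest. With that component taken out, the deviations still had r = 0.538 and rho = 0.511 (permutation p = 0.0187 and 0.0166). Without those 4 libraries r was 0.624 over 28 libraries. Which other property of the libraries the shared variation follows was not tested.

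**Figure D3:**
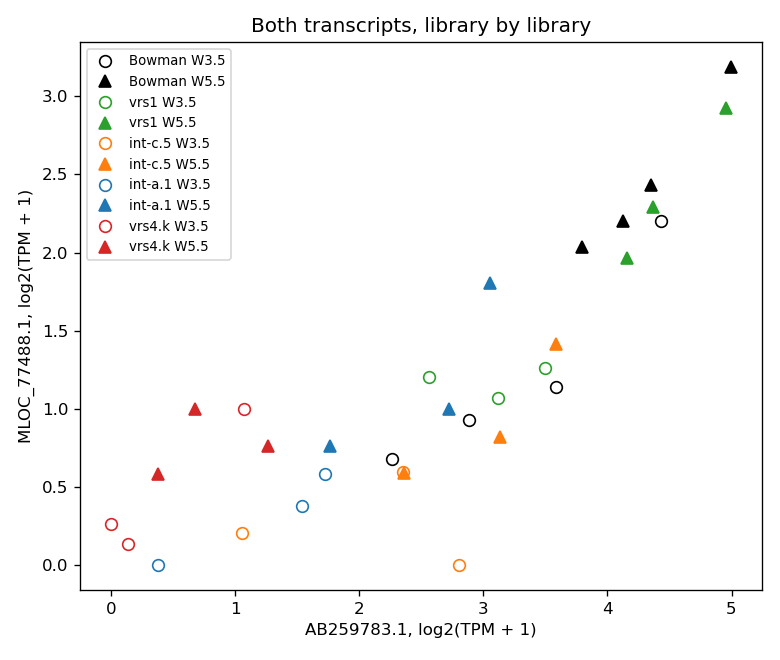
Level of MLOC_77488.1 against that of AB259783.1 in the 32 libraries, both as log2(TPM + 1), with colours for lines, open circles for W3.5 and filled triangles for W5.5. The points rise together (r = 0.842), with the vrs4.k libraries at the low end and the int-c.5 W3.5 library of whole numbers at 0 for MLOC_77488.1.

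With the values taken as TPM, which is scaled for length, the share of MLOC_77488.1 in the summed TPM of the pair was compared between lines. In Bowman the share was 9.84% to 14.9% at W3.5, with a mean of 12.7% ± 2.16 (SD, n = 4), and 17.9% to 20.8% at W5.5, with a mean of 19.1% ± 1.25. The stages did not overlap in Bowman, by an exact permutation test at the smallest p that 4 against 4 allows (p = 0.0286, two-sided; adjusted p = 0.143 over 5 lines). In vrs1 the share was 11.97% to 20.97% at W3.5 and 14.7% to 18.0% at W5.5. In int-a.1 it was 0% to 17.9% and 15.2% to 25.5%. Both lines had means close to Bowman's over both stages, at 15.8% each against 15.9% (exact permutation test within stage, adjusted p = 0.976 for each over 4 lines).

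In vrs4.k the balance of the pair differed. MLOC_77488.1 made up 47.6% to 100% of the sum at W3.5 and 33.3% to 62.5% at W5.5, above every Bowman library. Averaged over stages its share was 59.3% against 15.9% in Bowman, a difference of 43.4 points (exact permutation test within stage, two-sided p = 0.000816, the smallest that 1225 arrangements allow; adjusted p = 0.00327). These shares rest on low levels, since both transcripts were at or below 1.4 TPM in all 6 vrs4.k libraries and are given to 1 decimal. In int-c.5 the share was lower than in Bowman, at 9.41% against 15.9% (adjusted p = 0.00816), and the difference of -6.49 points became -4.54 points without the column of whole numbers (adjusted p = 0.0267).

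**Figure D4:**
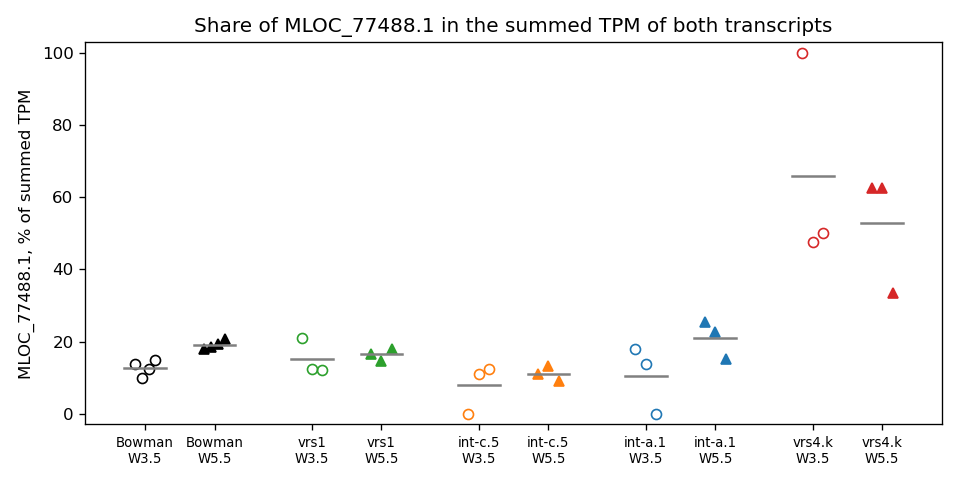
Share of MLOC_77488.1 in the summed TPM of both transcripts, in percent, for each library by line and stage, with grey lines at the group means. The vrs4.k libraries lie between 33.3% and 100%, and the Bowman libraries between 9.84% and 20.8%.

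The same question on the log2(TPM + 1) scale gave another answer for int-a.1 and int-c.5. There the fall of MLOC_77488.1 was smaller than that of AB259783.1 by 0.85 in int-a.1 and by 1.99 in vrs4.k (exact permutation test within stage, adjusted p = 0.00163 for both). In vrs1 and int-c.5 the members' log2 folds differed by -0.03 and 0.01 (adjusted p = 0.981 for both). With a pseudocount of 0.1 the difference was 0.40 in int-a.1, 2.67 in vrs4.k and -0.89 in int-c.5, which turned its sign. A pseudocount of 1 is close to the level of MLOC_77488.1, and for int-a.1 the share of the summed TPM showed no difference of that kind. For int-c.5 the share was lower than in Bowman while the log2(TPM + 1) folds of the pair were alike. Whether the balance of the pair differed in int-c.5 thus depends on the scale. The vrs4.k difference held on each of these scales.

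The other transcripts of the HD-Zip list were not called in any line, a result that a list this short can show at the background shares. The list drawn from Arabidopsis matches holds 12 transcripts, of which 9 match class I loci, and 3 rows caught by name match genes outside class I (AK374486, MLOC_65058.1 and MLOC_80844.1). Apart from the pair, 0 of the 10 others were called by limma in any of the 12 comparisons of a line with Bowman. Of all transcripts 0.0994% to 2.13% were called, so 0 calls is close to what these shares give for 10 transcripts. By limma 3 of the 10 had an unadjusted p below 0.05 in at least 1 of the comparisons. The highest mean levels were those of AK354063, matched to homeobox protein 16, at 95.2 TPM, MLOC_5668.1, matched to homeobox 1, at 40.8 TPM, and AK374486, a zinc-finger homeodomain match, at 40.5 TPM. In vrs4.k AK354063 averaged 86.5 ± 26.1 TPM at W3.5 and 105 ± 12.6 TPM at W5.5, against 93.7 ± 34.1 and 113 ± 15.4 TPM in Bowman. MLOC_8033.1, the third transcript with the Arabidopsis HB40 locus as its match, had a mean of 2.10 TPM and correlated with AB259783.1 at r = 0.233 and with MLOC_77488.1 at r = 0.367 over 32 libraries. Over the 5 lines 7 of the 12 transcripts, the pair among them, were higher at W5.5 and 0 lower, with a median log2 fold of 0.33 beside 0.07 over all transcripts. Of all transcripts 16.6% were called in that comparison, 3543 higher and 1468 lower, and of the 7 class I transcripts other than the pair 4 were higher.

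Among the 138 transcripts with a homeobox match every call against Bowman was of the pair, and the counts are close to what the shares called of all transcripts give for a list of this length in int-a.1 and vrs4.k over both stages (2.13% and 1.54%). At single stages the counts of lower calls were 1 in int-a.1 at W3.5, 1 in vrs4.k at W3.5 and 2 in vrs4.k at W5.5, and 0 in the other 5 comparisons. Shares called of all transcripts at a single stage were 0.0994% to 0.709%. Over both stages the counts were 2 in int-a.1, 2 in vrs4.k, 1 in int-c.5 and 0 in vrs1, beside 2.13%, 1.54%, 0.345% and 0.497% of all transcripts, and 0 transcripts were higher in any of them. Of the other 136, 34 had an unadjusted p below 0.05 in at least 1 of the 12 comparisons by limma. The abscisic acid list, taken because Arabidopsis HB40 acts on that hormone, held 42 transcripts. By limma 0 of the 42 were called in any of the 12 comparisons of a line with Bowman. Of all transcripts 0.0994% to 2.13% were called, so 0 calls is close to what these shares give for 42 transcripts. An unadjusted p below 0.05 by limma was found for 10 of the 42 in at least 1 comparison. At W5.5 over the 5 lines 8 of the 42 were higher and 2 lower than at W3.5, beside 3543 higher and 1468 lower of 30174 (16.6% called).

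Across all transcripts the nearest in pattern to both members was the same one. MLOC_70116.1, a TCP-family transcript on chromosome 4 at position 25.9, was picked in earlier work on these data to stand for INT-C, the barley relative of the maize branching repressor TEOSINTE BRANCHED1. It ranked first of 30115 transcripts by Pearson r of log2(TPM + 1) over the 32 libraries with AB259783.1 (r = 0.894) and with MLOC_77488.1 (r = 0.932). These are descriptions over libraries that share lines and stages. MLOC_77488.1 ranked 2 for AB259783.1, and AB259783.1 ranked 4 for MLOC_77488.1 (r = 0.842 in both). These ranks of the pair were 23 and 15 with a pseudocount of 0.1, and 33 and 86 with Bowman and vrs1 only. In the other settings tried they lay from 2 to 6. The TCP transcript averaged 3.18 ± 1.42 TPM in Bowman at W3.5 and 5.78 ± 1.82 at W5.5, 2.43 ± 0.513 and 6.57 ± 1.80 in vrs1, 1.00 ± 0.436 and 2.13 ± 0.252 in int-a.1, 1.23 ± 0.839 and 1.80 ± 0.1 in vrs4.k, and 1.28 ± 0.625 and 3.02 ± 1.02 in int-c.5.

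**Figure D5:**
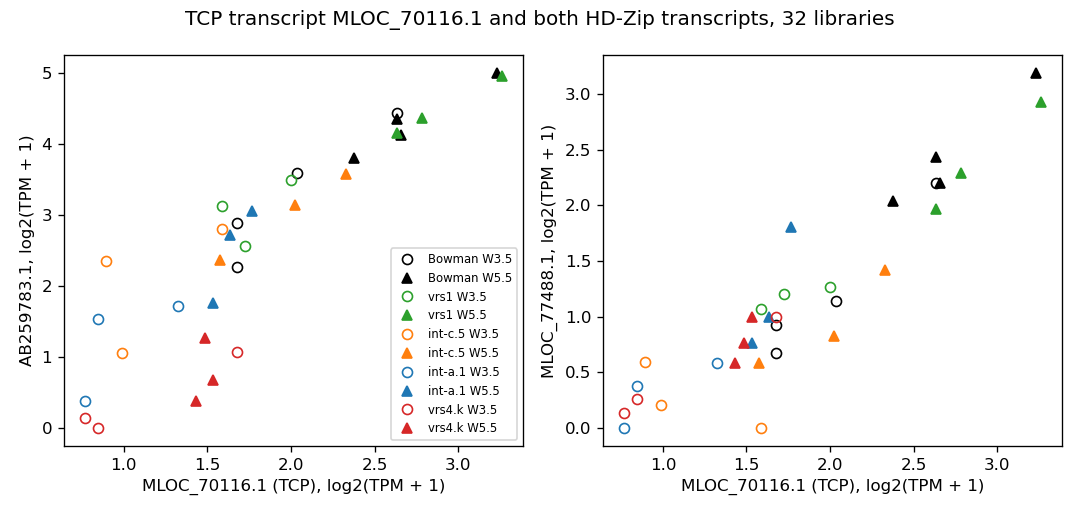
AB259783.1 (left) and MLOC_77488.1 (right) against the TCP transcript MLOC_70116.1 in 32 libraries, all as log2(TPM + 1), with colours for lines, open circles for W3.5 and filled triangles for W5.5. Points rise from the vrs4.k and int-a.1 libraries to the W5.5 libraries of Bowman and vrs1, with r = 0.894 and 0.932.

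The other near patterns differed between the members. For AB259783.1 they were MLOC_57563.1 (r = 0.827), MLOC_46816.1 (r = 0.824) and MLOC_31021.1 (r = 0.802), which have no informative match, and AK375564, a MATE efflux transporter match (r = 0.786). For MLOC_77488.1 they were MLOC_13154.1, a polymerase/histidinol phosphatase-like match (r = 0.908), AK369282, which matches the MADS-box gene AGAMOUS-like 20 (r = 0.874), AK365584, a cytochrome P450 match (r = 0.822), and AK249213.1, without an informative match (r = 0.813). On deviations from group means the order changed. MLOC_57563.1 was then nearest to AB259783.1 (r = 0.877) and the auxin response factor match AK354806 to MLOC_77488.1 (r = 0.881), while the TCP transcript ranked 8 (r = 0.808) and 113 (r = 0.782). The pair ranked 54 and 192 in each other's order. Next after MLOC_57563.1 for AB259783.1 came AK368155 (r = 0.828), MLOC_36305.2 (r = 0.824), AK369282 (r = 0.818), MLOC_57803.3 (r = 0.815), a MADS-box match, and MLOC_66104.1 (r = 0.814). After AK354806 for MLOC_77488.1 came MLOC_52950.1 (r = 0.873), MLOC_657.1 (r = 0.870), the WRKY match MLOC_5850.1 (r = 0.870), MLOC_55553.2 (r = 0.862) and MLOC_10329.1 (r = 0.860).

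The transcripts picked for the loci of 2 other lines ranked far below the TCP transcript. The identity of these transcripts and of the TCP transcript with the loci was not tested. AK373051, an LBD41 match taken to stand for VRS4, had r = -0.01 with AB259783.1 and -0.31 with MLOC_77488.1. MLOC_69611.1, a jmjC-domain match taken to stand for INT-A, had r = 0.112 and 0.425. On deviations from group means these were -0.39 and -0.42 for AK373051, and 0.56 and 0.627 for MLOC_69611.1, which ranked 1809 and 1427 of 30115.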

How the data were processed

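The authors deposited 1 table of 30174 transcripts for 32 libraries. Raw counts is the headers' name for the expression columns, yet most values have decimals and libraries sum to 980945 to 987728, so the deposited values were treated as TPM. Of the deposited columns 26 have 1 decimal, 5 int-c.5 columns have more, and 1 (int-c.5 W3.5 replicate 1) holds whole numbers and was recorded as a score on the same scale. The authors' log2 fold changes and false discovery rates (adjusted p-values), named so per the file headers, are quoted for comparison. Tools listed without versions in the submitters' processing notes are Salmon, BWA, GATK and limma; no source used here gives the genome build. Column headers name a line, a stage and a replicate number; the sample labels carry no such number and no source says that equal numbers share plants or days, so the numbers are used as names. There were 0 unassigned columns. Neither member matched the reference gene table (0 matches).

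All 32 libraries were fitted in limma 3.58.1 under R 4.3.3 (eBayes after lmFit) on log2(TPM + 1) with 10 groups. Benjamini-Hochberg adjustment ran over 30174 transcripts, with calls below 0.05. The fit was checked on simulated data, with changes placed only in better expressed transcripts. That check does not cover levels as low as those of MLOC_77488.1. The filter of at least 1 TPM in 3 libraries removed none. Folds on this scale understate the change of low transcripts. Values after ± are SDs. Correlations used 100000 permutations. The share of the pair sum was added after seeing the data, as were relations without vrs4.k or without the first principal component. Named are both members, the transcripts of the HD-Zip list (3 of whose 12 rows are outside class I) called in a line or among the 3 highest, those picked for VRS4, INT-C and INT-A, and the 6 nearest transcripts with a mean of at least 1 TPM. MLOC_8033.1 and the rows outside class I are named for their matches. The members and lists were chosen with earlier results of these data known.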

Additional observations from a re-analysis of the deposited data

How the results depend on the processing

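Settings and single libraries were changed one at a time, and the values are log2 folds. The causes of the changes were not tested. The first principal component broadly followed stage, so as a covariate it also takes out part of any stage difference. The vrs4.k calls over both stages of both transcripts, the vrs4.k W5.5 and int-a.1 both-stage calls of AB259783.1, and the 4 relations between the transcripts kept direction and side of the threshold under every setting tried. With a pseudocount of 0.1, calls were lost for AB259783.1 in int-a.1 at W3.5 (-2.81) and for MLOC_77488.1 in vrs4.k at W5.5 (-2.50), in int-a.1 against vrs1 (-1.98) and in vrs4.k against vrs1 (-2.08), AB259783.1 passed in int-a.1 against vrs4.k (2.38), and signs turned for MLOC_77488.1 in vrs1 at W3.5 (0.007), in the interactions of MLOC_77488.1 in int-a.1 (0.44) and int-c.5 (0.21) and of AB259783.1 in vrs4.k (0.26) and int-c.5 (0.08), and in the members' difference in int-c.5 (-0.89). Quantile normalization moved library medians by -0.12 to 0.13, and median scaling by -0.10 to 0.12. Under quantile normalization MLOC_77488.1 passed in int-c.5 at W5.5 (-1.75), was lost in int-a.1 (-0.97) and vrs4.k (-1.05) against vrs1, and turned in vrs1 at W3.5 (0.025) and over both stages (0.004), as did AB259783.1 in vrs1 over both stages (0.01). Median scaling turned the vrs1 interaction of MLOC_77488.1 (0.001), and the mean-variance trend ended its call in int-a.1 against vrs1 (-1.03). With only the compared groups, calls were lost for AB259783.1 at W3.5 in int-a.1 (-2.08) and vrs4.k (-2.89) and for MLOC_77488.1 in vrs4.k at W5.5 (-1.68), over both stages in int-a.1 (-1.09) and int-c.5 (-1.25), and in int-a.1 against vrs1 (-1.03). Library weights made calls of AB259783.1 in int-a.1 at W5.5 (-1.75), in int-c.5 over both stages (-1.18), by stage in int-a.1 (1.97), and in int-a.1 against vrs4.k (1.02), int-a.1 against int-c.5 (-1.11) and vrs1 against int-c.5 (1.02). They made calls of MLOC_77488.1 in int-a.1 at W3.5 (-1.12) and W5.5 (-1.40), vrs4.k at W3.5 (-0.88), int-c.5 at W5.5 (-1.51), and by stage in Bowman (1.25) and int-a.1 (0.97), and turned MLOC_77488.1 in vrs1 at W3.5 (0.017), int-a.1 against vrs4.k (-0.020), int-a.1 against int-c.5 (-0.088) and vrs4.k against int-c.5 (-0.068) and the int-c.5 interaction of AB259783.1 (0.13). The first principal component as covariate ended the stage calls over 5 lines (0.44 and 0.45), made calls of AB259783.1 and MLOC_77488.1 in int-a.1 at W5.5 (-1.52 and -1.07), of MLOC_77488.1 in vrs4.k at W3.5 (-1.09) and of AB259783.1 in int-a.1 against vrs4.k (1.53), and turned MLOC_77488.1 in vrs1 at W5.5 (0.066), both transcripts in vrs1 over both stages (0.088 and 0.021), the AB259783.1 interactions of vrs4.k (0.082) and int-c.5 (0.044), the MLOC_77488.1 interaction of vrs1 (0.090), and MLOC_77488.1 in int-a.1 and vrs4.k against int-c.5 (-0.057 and -0.37). Without the 4 libraries that stand apart, AB259783.1 was lost in int-a.1 at W3.5 (-1.96), calls were made in int-a.1 at W5.5 (-1.80 and -1.27) and by stage in Bowman (1.41 and 1.55), and signs turned in vrs1 at W3.5 (0.15 and 0.26) and over both stages (0.16 and 0.10), for MLOC_77488.1 in int-a.1 and vrs4.k against int-c.5 (-0.003 and -0.20), in the members' difference in int-c.5 (-0.10) and in the vrs1 share (0.26 points).

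Leaving out 1 library at a time ended or made calls in 7 results. For AB259783.1 in int-a.1 at W3.5 the range was -2.42 to -1.66. For MLOC_77488.1 it was -1.82 to -1.44 in vrs4.k at W5.5, -1.58 to -1.03 in int-a.1 at W5.5, 0.99 to 1.55 by stage in Bowman, and against vrs1 -1.18 to -0.90 for int-a.1 and -1.29 to -1.03 for vrs4.k, and 1.05 to 1.30 for vrs1 against int-c.5. Signs turned in uncalled results. For AB259783.1 these were vrs1 at W3.5 (-0.58 to 0.15), at W5.5 (-0.059 to 0.40) and over both stages (-0.20 to 0.16) and the interactions of int-a.1 (-0.14 to 0.65) and int-c.5 (-0.58 to 0.29). For MLOC_77488.1 they were vrs1 at W3.5 (-0.24 to 0.26), at W5.5 (-0.34 to 0.17) and over both stages (-0.20 to 0.10), the vrs1 interaction (-0.33 to 0.23), int-a.1 against int-c.5 (-0.003 to 0.27), int-a.1 against vrs4.k (-0.023 to 0.26) and vrs4.k against int-c.5 (-0.11 to 0.14). The members' difference ran from -0.23 to 0.26 in int-c.5 and from -0.17 to 0.054 in vrs1. A mean filter of 5 TPM gives no value for MLOC_77488.1. At an adjusted p below 0.01 the count of transcripts called fell from 197 to 108 and from 214 to 128 in int-a.1 at W3.5 and W5.5, from 643 to 316 over both stages, from 466 to 237 in vrs4.k and from 104 to 56 in int-c.5 over both stages, from 32 to 20 in int-c.5 at W5.5, from 3 to 0 by stage in int-a.1 and from 5011 to 1036 by stage over 5 lines. The TCP transcript ranked 1 or 2 for both members in 6 of 7 settings, and 16 and 17 with Bowman and vrs1 only. The headers' replicate numbers were tried as a block, chosen after seeing the data. They did not pair the libraries: deviations from group means correlated across transcripts at a median r of -0.011 in 136 pairs of equal number and -0.010 in 324 of unequal number, and 5 of 32 libraries correlated best with their own number. With this replicate block the call of AB259783.1 in int-a.1 at W3.5 was lost (-1.78), and signs turned in vrs1 for AB259783.1 at W3.5 (0.071) and over both stages (0.27) and for MLOC_77488.1 at W3.5 (0.22), at W5.5 (0.21) and over both stages (0.22). No other call of the pair changed; the count of transcripts called in int-c.5 over both stages went from 104 to 63 and by stage in int-c.5 from 0 to 1. Depth is unknown, and levels under 1 TPM rest on values given to 1 decimal outside int-c.5. In int-c.5, 5 columns have more decimals and 1 holds whole numbers.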
